A study of Drosophila melanogaster with 36 samples.

Results

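Cytochrome P450 genes were described here across a 2-day series of abdominal fat body transcript measurements in adult male Drosophila melanogaster. The genes were taken by symbol, as those whose name in the array's annotation starts with Cyp and a digit, and Cyp4d21 was left out. Of 11982 genes with a probe set, 82 matched. The symbols Cyp1 and Cyp40 belong to cyclophilins, which are not P450 enzymes, and both were set aside, so that 80 P450 genes remained. Each gene was read from its probe set with the highest mean over all arrays. By family there were 21 Cyp4, 23 Cyp6, 5 Cyp9, 6 Cyp12, 4 Cyp28 and 19 Cyp3xx genes, and Cyp18a1 and Cyp49a1 stood alone. Cyp3xx gathers the families numbered from Cyp301 to Cyp318.

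P450 enzymes are haem proteins that add an oxygen atom from molecular oxygen to small lipophilic molecules, with electrons handed on by reductases, cytochrome b5 or, in mitochondria, ferredoxins. In insects they make and break down steroid hormones, juvenile hormone, fatty acids and cuticular hydrocarbons, and they detoxify plant compounds and insecticides. The fat body, with gut and Malpighian tubule, is a main site of that detoxification, and many of its P450 transcripts are known to be induced by foreign chemicals.

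The study set flies labelled dnClk beside flies labelled wild type (WT). Clock is the transcription factor at the head of the circadian loop, and dnClk stands for a version of it that acts as a dominant negative. The labels name no driver for it. WT flies carried w; UAS-dnClk/+, that is, the transgene with no driver named. All flies were males that had been kept for 5 days from eclosion at 25 °C under 12 h light and 12 h dark a day, and abdominal fat bodies were dissected from the next day on, 10 pooled for each array. The dnClk course had 12 arrays, 1 every 4 h over 2 days, and the WT course had 24 arrays, 1 every 2 h. Times are given as zeitgeber time (ZT), hours after lights on of the first day. No time was sampled more than once, so the arrays of a course stand as replicates around a fitted curve, and the p-values measure their spread around it, part of which may be technical. In pooled tissue a lower level cannot be told apart as fewer cells of a type or less RNA per cell.

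Values are intensities in the authors' scaling, and differences are dnClk minus WT on the scale of log2(intensity + 16). Genotype and array processing cannot be told apart, since the spiked hybridisation controls averaged 10.02 ± 0.20 log2 units in dnClk (SD, n = 12) and 12.12 ± 0.31 in WT (SD, n = 24) with no overlap. The median difference over all 11261 tested probe sets was 0.25 in the deposited values, -0.011 with quantile normalization, -0.14 with each array centred on its median, and 2.03 with arrays scaled to those controls. Differences of single genes are to be read against these medians. The transcript of Clk had a median of 642 in dnClk and 130 in WT, a difference of 2.20. Of 7 fat body markers all 7 were lower in dnClk, with summed intensities of 6375 to 7723 in dnClk and 17930 to 37639 in WT. All 4 tested oenocyte markers, Cyp4g1 among them, were lower too, 7 of 7 haemocyte markers were higher, and 8 of 10 tested markers of accessory gland and ejaculatory tract were higher. These counts are as deposited. After quantile normalization 6 fat body markers were lower and 6 haemocyte markers higher, with 0 called the other way in either list. Of the oenocyte markers 1 was then lower and 1 higher, and of the accessory gland and ejaculatory tract markers 6 were higher and 1 lower. None of 15 testis markers passed limma's test (1 had an unadjusted p under 0.05), and their summed intensity ran from 2132 to 18619 in dnClk and from 256 to 35388 in WT. The part of these other cells in the P450 differences between genotypes was not tested beyond the covariate fit given below. That fit cannot settle it, since most tested accessory gland and ejaculatory tract markers themselves differed between genotypes.

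Of the 80 genes 62 were bright enough to be tested, meaning that their probe sets were among the brightest 60% over all arrays. They were 18 Cyp4, 19 Cyp6, 5 Cyp9, 5 Cyp12, 3 Cyp28 and 10 Cyp3xx genes with Cyp18a1 and Cyp49a1. In dnClk, 24 of the 62 were higher (38.7%) and 24 were lower (38.7%), by limma's joint fit with a Benjamini-Hochberg adjusted p under 0.05 over all tested probe sets. The background over all tested probe sets was 39.3% higher and 17.7% lower. The share that was higher was thus near the background, and the share that was lower was above it. With quantile normalization 22 of 62 P450 genes were higher and 26 of 62 lower, where 20.2% and 26.1% of all tested probe sets were. With median-centred arrays 16 of 62 were higher and 29 of 62 lower, where 11.5% and 33.9% of all were. Taken as shares, these P450 counts all lay above the background. Under all 3 of these scalings together, 16 genes were called higher (25.8%, background 11.5%) and 21 were called lower (33.9%, background 14.8%).

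The P450 genes differed from most transcripts more in the width of their differences than in the centre. Their median difference was 0.08, beside 0.25 over all tested probe sets. The interquartile range of the P450 differences ran from -0.49 to 0.73, and that of all tested probe sets from -0.07 to 0.51. Changes over 4-fold were found in 6 genes upward (9.68%), where 1.55% of all tested probe sets rose so far, and in 6 genes downward (9.68%), where 0.906% fell so far. The full range ran from -3.08 for Cyp6g1 to 5.51 for Cyp4p2. For 10 genes every dnClk array lay above every WT array (background 6.3%), and for 9 genes every dnClk array lay below (background 4.4%).

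**Figure D1:**
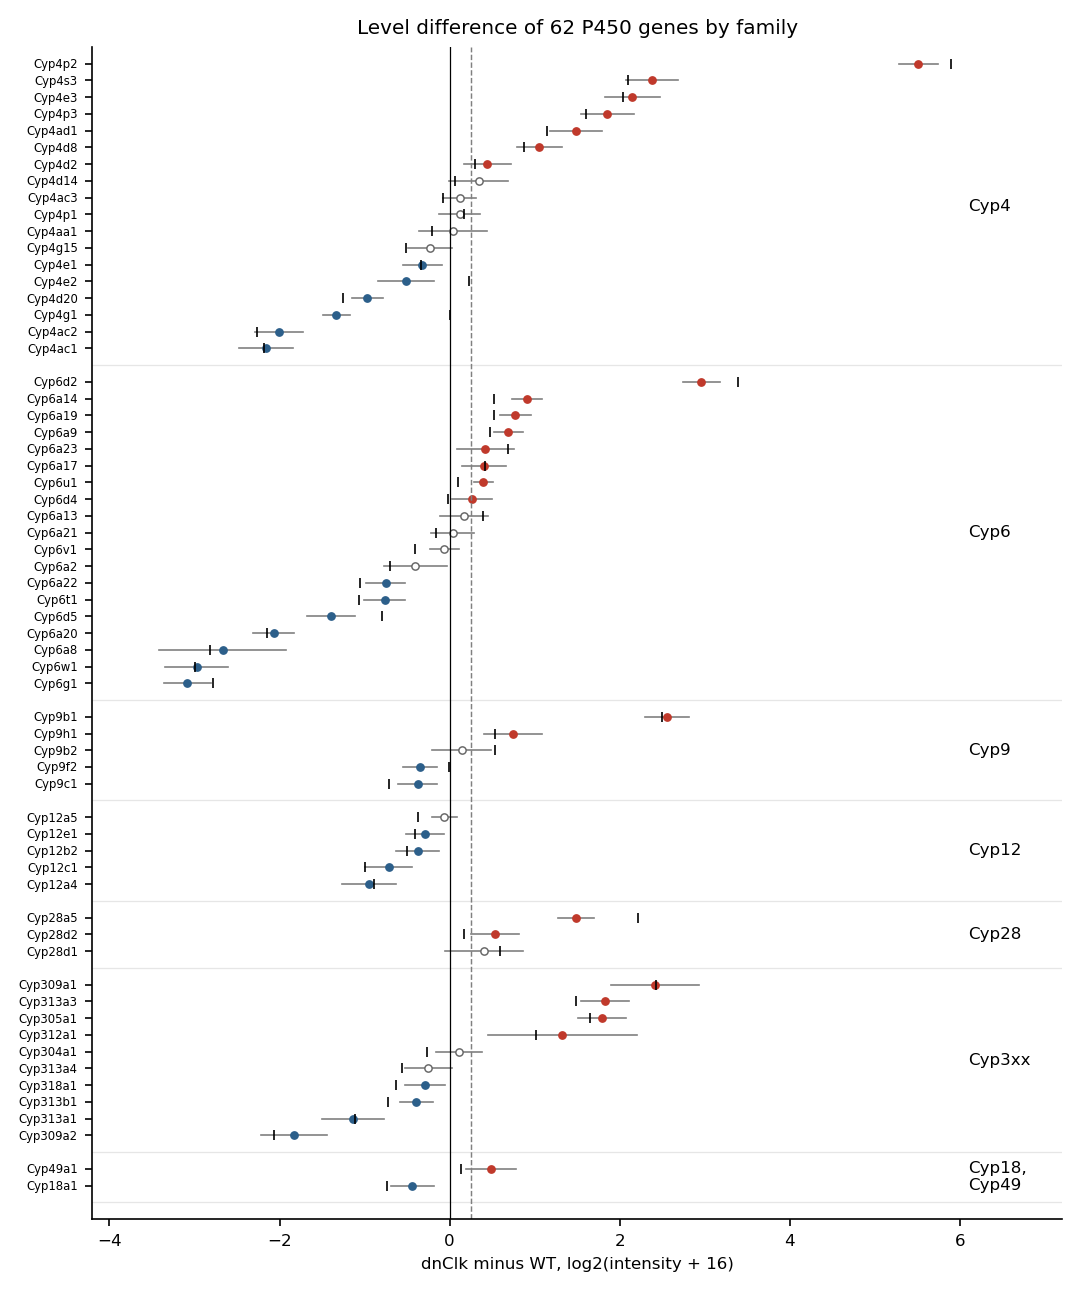
Level differences of the 62 tested P450 genes, dnClk minus WT on the scale of log2(intensity + 16), 1 gene per row and grouped by family. Circles with lines are the fitted difference and its 95% confidence interval, filled red where higher and blue where lower in dnClk at an adjusted p under 0.05 and open where not called. Black ticks are the difference after quantile normalization, which turns that of Cyp4g1 and Cyp4e2 above 0, and the dashed line is the median of all tested probe sets, 0.25. Scaling to the hybridisation controls would move the median of all tested probe sets to 2.03.

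Among Cyp4 genes, which include fatty acid hydroxylases, 7 of 18 were higher (background 39.3%), 6 lower (background 17.7%) and 5 not called. The counts of single families were not tested against those shares. Cyp4p2 ran from 1250 to 2529 with a median of 1604 in dnClk, against 8.2 to 45.0 with a median of 16.4 in WT. No array of either genotype came near the other range, and many WT values lay about the pseudocount of 16, so the size of the fold depends on that constant. The difference was 5.51 ± 0.11 (SE, limma, adjusted p = 2.1e-28), a fold of 45.6 on this scale and the largest increase among all tested probe sets as deposited. Its neighbours on the chromosome are Cyp4p1 and Cyp4p3. Cyp4p3 ran from 209 to 362 (median 274) in dnClk and from 32.8 to 150 (median 59.6) in WT, with no overlap and a difference of 1.85 ± 0.15. Cyp4p1, in contrast, had a median of 580 in dnClk and 528 in WT with overlapping ranges, and its difference of 0.12 ± 0.12 did not pass (adjusted p = 0.39).

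Cyp4s3 ran from 160 to 386 (median 252) in dnClk and from 11.9 to 94.0 (median 33.9) in WT, again without overlap, a difference of 2.38 ± 0.15. Cyp4e3 had a median of 406 in dnClk and 71.3 in WT (2.15 ± 0.16, adjusted p = 1.6e-13), and its lowest dnClk array, 137, lay just under the highest WT array, 142. Cyp4ad1 had 97.8 to 134 in dnClk and 12.3 to 83.8 in WT (1.48 ± 0.15), so every dnClk array was above every WT array. Cyp4d8 had a median of 291 in dnClk and 114 in WT, a difference of 1.06 ± 0.13 with overlap.

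Of the Cyp4 genes that fell, Cyp4ac1 and Cyp4ac2 lay in 1 group of neighbours on the chromosome. Cyp4e1 and Cyp4e2 lay in another, with Cyp4ad1, which rose. Cyp4e1 gave -0.32 as deposited (limma, adjusted p = 0.015) and -0.34 after quantile normalization. Cyp4ac1 ran from 105 to 437 (median 257) in dnClk and from 625 to 2136 (median 1096) in WT, a difference of -2.16 ± 0.15 (adjusted p = 6.2e-14). Cyp4ac2 beside it ran from 20.7 to 55.0 (median 32.1) in dnClk and from 95.1 to 368 (median 181) in WT, a difference of -2.0 ± 0.14. Neither pair of ranges overlapped. Cyp4ac3, the next gene, had a median of 246 in dnClk and 233 in WT and was not called (0.12 ± 0.10, adjusted p = 0.28).

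Cyp4g1 is the oenocyte enzyme that makes the hydrocarbons of the cuticle by oxidative decarbonylation. It ran from 2965 to 4684 (median 3548) in dnClk and from 6534 to 12029 (median 9066) in WT without overlap, a difference of -1.33 ± 0.08 as deposited, which was 0.010 after quantile normalization. It was a bright probe set on arrays whose upper range differed between genotypes. With the distributions made equal by quantile normalization no difference was called (limma, adjusted p = 0.86). The direction of any change in its transcript was therefore not settled by these files. Cyp4e2, with a median of 1576 in dnClk and 2057 in WT, gave -0.51 ± 0.16 as deposited and 0.23 after quantile normalization. Cyp4d20 had a median of 111 in dnClk and 243 in WT, with a difference of -0.97 ± 0.09 (adjusted p = 4.7e-11) that stayed below 0 under quantile normalization at -1.25 and under centring at -1.36. The untested Cyp4d1 ran from 2.5 to 8.2 (median 5.8) in dnClk and from 30.1 to 89.4 (median 43.1) in WT, also without overlap.

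**Figure D2:**
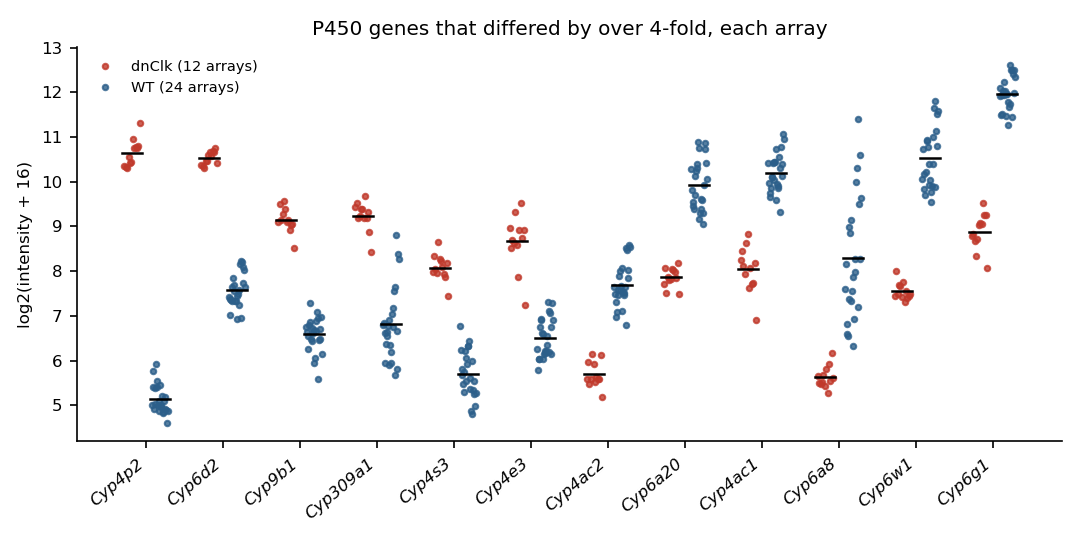
Single arrays for the 12 P450 genes that differed by over 4-fold, on a log2(intensity + 16) axis, with the 12 dnClk arrays (red) left of the 24 WT arrays (blue) for each gene and bars at the means. Levels are to be compared within a gene only. Cyp4p2 lies between 1250 and 2529 intensity units in dnClk and at or under 45.0 in WT, and Cyp6g1 lies between 253 and 726 in dnClk and at or above 2445 in WT.

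Among Cyp6 genes, 8 of 19 were higher (background 39.3%), 7 lower (background 17.7%) and 4 not called. This family gave 19 of the 62 tested genes and 4 of the 6 P450 falls over 4-fold. Cyp6g1, whose overexpression gives flies resistance to DDT and neonicotinoids, ran from 253 to 726 (median 471) in dnClk and from 2445 to 6245 (median 3954) in WT. The ranges were far apart, and the difference was -3.08 ± 0.14 (limma, adjusted p = 1.4e-19), 8.48-fold higher in WT. Scaled to the hybridisation controls it was still below 0, at -1.02. Its chromosomal neighbours Cyp6g2 and Cyp6t3 were too dim to be tested. Cyp6t3, which takes part in larval ecdysteroid synthesis, had 2 to 6.9 in dnClk and 7 to 37.9 in WT.

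Cyp6w1, a gene raised in DDT-resistant strains, ran from 144 to 241 (median 164) in dnClk and from 737 to 3580 (median 1335) in WT, a difference of -2.97 ± 0.18 (adjusted p = 1.2e-15). Cyp6a8, a P450 inducible by barbiturates and caffeine, ran from 22.8 to 56.6 (median 31.8) in dnClk and from 64.1 to 2673 (median 252) in WT, a difference of -2.67 ± 0.37 (adjusted p = 1.7e-07). Neither gene overlapped between genotypes, and both stayed below 0 under control scaling, at -0.96 each. Cyp6d5 ran from 887 to 1310 in dnClk and from 1582 to 5656 in WT (-1.39 ± 0.14). After quantile normalization its difference was -0.79.

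Upward, Cyp6d2 stood apart in its family. It ran from 1246 to 1714 (median 1456) in dnClk and from 106 to 284 (median 169) in WT, with no overlap and a difference of 2.96 ± 0.11 (adjusted p = 5.2e-22), which was 3.40 after quantile normalization. The next was Cyp6a14, with 49.2 to 90.6 in dnClk and 15.6 to 48.9 in WT, a difference of 0.91 ± 0.08. Every dnClk array of Cyp6a14 was above every WT array, if by a small margin. Its neighbour Cyp6a13 had a median of 861 in dnClk and 748 in WT and was not called as deposited (0.17 ± 0.14, adjusted p = 0.29), but was after quantile normalization (0.39, adjusted p = 0.0055).

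A run of 9 neighbouring P450 genes on 1 chromosome holds Cyp6a22, Cyp6a17, Cyp6a23, Cyp6a19, Cyp6a9, Cyp6a20, Cyp6a21, Cyp6a8 and Cyp317a1. Of its 8 tested members 4 were higher and 3 lower in dnClk, so the run did not move as a block. The higher ones were modest: Cyp6a19 had a median of 215 in dnClk and 122 in WT (0.77 ± 0.09), and Cyp6a9 had a median of 261 in dnClk and 158 in WT (0.69 ± 0.08). Cyp6a23 and Cyp6a17 differed by 0.42 ± 0.16 and 0.40 ± 0.13, and neither was called with median-centred arrays. Without the dnClk array at ZT 40 Cyp6a23 was not called either (adjusted p = 0.055). Next to Cyp6a9 stood Cyp6a20, a gene known for its effect on aggression between male flies. It ran from 163 to 275 (median 216) in dnClk and from 518 to 1870 (median 917) in WT. The ranges did not overlap, and the difference was -2.07 ± 0.12 (adjusted p = 1.9e-16). Cyp6a21 beside it had a median of 270 in dnClk and 257 in WT and did not differ in level beyond its error (0.04 ± 0.12, adjusted p = 0.80). Cyp6a22 had a median of 35.8 in dnClk and 67.2 in WT (-0.75 ± 0.11). Near-identical neighbours can share probe signal, and the files do not show whether these probe sets do.

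Of 5 Cyp9 genes 2 were higher (background 39.3%), 2 lower (background 17.7%) and 1 not called. Cyp9b1 ran from 348 to 741 (median 545) in dnClk and from 32 to 139 (median 85.0) in WT, with no overlap and a difference of 2.56 ± 0.13 (adjusted p = 4.6e-18). Its neighbour Cyp9b2 had a median of 1003 in dnClk and 941 in WT and was not called as deposited (0.14 ± 0.17, adjusted p = 0.48). It was called higher after quantile normalization (0.54, adjusted p = 0.00076). Cyp9h1 differed by 0.75 ± 0.17 with overlapping ranges. Cyp9c1 and Cyp9f2 differed by -0.37 ± 0.11 and -0.35 ± 0.10, and that of Cyp9f2 was -0.0040 after quantile normalization.

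The Cyp12 genes belong to the mitochondrial clan, which draws electrons from ferredoxin. None of 5 was higher (background 39.3%) and 4 were lower (background 17.7%). Their median difference was -0.38 beside 0.25 over all tested probe sets, and -0.50 beside -0.011 after quantile normalization. Control scaling put it at 1.63 beside 2.03. Cyp12a4, which gives lufenuron resistance when overexpressed, ran from 306 to 523 (median 477) in dnClk and from 501 to 1644 (median 860) in WT. Its ranges overlapped only slightly, and the difference was -0.95 ± 0.16 (adjusted p = 3.9e-06). Cyp12c1 had a median of 105 in dnClk and 167 in WT (-0.72 ± 0.13), and Cyp12b2 a median of 267 in dnClk and 401 in WT (-0.38 ± 0.12). Cyp12a5, next to Cyp12a4, was not called as deposited (-0.06 ± 0.07, adjusted p = 0.47) but was called lower after quantile normalization (-0.37, adjusted p = 0.0025) and with centred arrays (-0.45, adjusted p = 0.0037).

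Cyp12e1 gave -0.29 ± 0.11 (adjusted p = 0.028), and a dimmer probe set of the same gene gave 0.05 (adjusted p = 0.73), so its probe sets disagree. Leaving out any of 3 dnClk arrays also ended the Cyp12e1 call, with an adjusted p of up to 0.055. Another probe set is shared by the near-identical genes Cyp12d1-d and Cyp12d1-p, and it ran from 80.5 to 141 (median 104) in dnClk and from 107 to 1170 (median 235) in WT, a difference of -1.20 ± 0.24. Those copies cannot be told apart by it. With the means of testis and accessory gland markers as covariates, 2 of the 5 Cyp12 genes were lower in dnClk, Cyp12a4 at -0.57 and Cyp12c1 at -0.37.

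Of 3 tested Cyp28 genes 2 were higher (background 39.3%) and none was lower (background 17.7%). In Drosophila mettleri, genes of this family are induced by the alkaloids of host cactus. Cyp28a5 ran from 1564 to 2234 (median 1976) in dnClk and from 465 to 1072 (median 669) in WT, with no overlap and a difference of 1.49 ± 0.10 (adjusted p = 2.2e-14), which was 2.21 after quantile normalization. Cyp28d2 had a median of 116 in dnClk and 77.8 in WT (0.53 ± 0.14). It was not called with the testis and accessory gland covariates (0.08, adjusted p = 0.70). Cyp28d1, its neighbour, gave 0.40 ± 0.22 (adjusted p = 0.13) as deposited, 0.60 after quantile normalization (adjusted p = 0.012) and 0.99 with those covariates (adjusted p = 0.0006).

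Among Cyp3xx genes 4 of 10 tested were higher (background 39.3%), 4 lower (background 17.7%) and 2 not called. Another 9 were too dim to be tested. The neighbours Cyp309a1 and Cyp309a2 moved in opposite directions. Cyp309a1 ran from 327 to 801 (median 607) in dnClk and from 35.6 to 432 (median 88.6) in WT, with 2.42 ± 0.25 (adjusted p = 5.9e-10). Its ranges overlapped through 1 WT array, the one at 432. Cyp309a2 ran from 60.6 to 137 (median 95.3) in dnClk and from 192 to 994 (median 327) in WT, without overlap and with -1.83 ± 0.19 (adjusted p = 4.1e-10), though control scaling put it at 0.085 beside the median of 2.03.

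Cyp313a3 ran from 81.8 to 138 (median 119) in dnClk and from 5.9 to 41.1 (median 17.9) in WT (1.83 ± 0.14), and Cyp305a1 from 251 to 460 (median 372) in dnClk and from 41.7 to 174 (median 93.1) in WT (1.79 ± 0.14). Neither overlapped. The untested Cyp313a2, beside Cyp313a3 on the chromosome, ran from 28.2 to 54.2 in dnClk and from 1.7 to 16.8 in WT, also without overlap. Cyp313a1 had a median of 422 in dnClk and 996 in WT (-1.14 ± 0.18, adjusted p = 1.8e-06), with overlap. Cyp313b1 and Cyp318a1 gave -0.39 ± 0.09 and -0.29 ± 0.12. The call of Cyp318a1 was lost when any of 7 of the 36 arrays was left out, among them every second-day dnClk array, with an adjusted p of up to 0.10. In dnClk it ran from 78.5 to 124 on the first day, within the WT range of 62.1 to 125. On the second day it ran from 39.6 to 61.3, below that range. Cyp313a4, not called, ran in dnClk from 111 to 208 on the first day and from 46.1 to 84.6 on the second. A difference between days was not tested in dnClk.

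Cyp312a1 behaved unlike the rest of its group. It ran from 50.1 to 752 (median 209) in dnClk and from 10.7 to 724 (median 69.9) in WT, a difference of 1.32 ± 0.43 (adjusted p = 0.0091) that was 0.29 (adjusted p = 0.56) with testis and accessory gland marker means as covariates. In dnClk its 3 highest arrays, 752 at ZT 4, 656 at ZT 44 and 515 at ZT 24, were the 3 with the highest summed accessory gland and ejaculatory tract markers, 8566, 10024 and 8373, where the other 9 arrays had sums of 3086 to 4937. The highest WT array for Cyp312a1, 724 at ZT 24, also had the highest WT sums of testis markers, 35388, and of accessory gland and ejaculatory tract markers, 12496. The next WT arrays, 392.5 at ZT 36 and 356 at ZT 4, had high testis sums too, 34958 and 32275. Their accessory gland and ejaculatory tract sums were 2167 and 1426, the latter the lowest in WT.

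The lone genes moved little. Cyp18a1, which inactivates the moulting hormone 20-hydroxyecdysone, had a median of 94.8 in dnClk and 136 in WT (-0.44 ± 0.13, adjusted p = 0.0035). Cyp49a1, of the mitochondrial clan, had a median of 108 in dnClk and 73.0 in WT (0.49 ± 0.14). Fitted with the tissue covariates, Cyp49a1 gave 0.04 (adjusted p = 0.89). The P450 genes of ecdysteroid synthesis that carry other symbols, dib, phtm, spo, spok, sad and shd, were all 6 too dim to be tested.

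Of 18 untested P450 genes 15 overlapped between genotypes. Those were Cyp12d1-d, Cyp28c1, Cyp4ae1, Cyp4c3, Cyp6a16, Cyp6a18, Cyp6g2, Cyp301a1, Cyp303a1, Cyp308a1, Cyp310a1, Cyp311a1, Cyp313a5, Cyp316a1 and Cyp317a1. Cyp4d1, Cyp6t3 and Cyp313a2 did not overlap, and Cyp6t3 was parted narrowly, with at most 6.9 in dnClk and at least 7 in WT. Overlap was not counted over all untested probe sets, so this count has no background. Whether array scaling alone parted these dim genes was not tested. The files hold no detection calls, so a low value is no proof that a transcript was absent.

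Genes that serve P450 enzymes were read from lists of their partners and regulators. Of 6 listed electron donors and partners 4 were read, and of 7 listed haem genes 6 were. The P450 reductase was not among those read. Of 4 tested electron donors and partners 1 was higher and 3 were lower in dnClk. After quantile normalization 0 of the 4 were higher and 2 lower. Over all tested probe sets 39.3% were higher and 17.7% lower as deposited, and 20.2% and 26.1% after quantile normalization. The counts of these short lists were not tested against such shares. Cyt-b5, the electron donor cytochrome b5, had a median of 2042 in dnClk and 4071 in WT, with -0.93 ± 0.08 as deposited and 0.12 after quantile normalization. Cyt-b5-r, a cytochrome b5-related protein, ran from 223 to 443 in dnClk and from 2974 to 7167 in WT (-3.85 ± 0.12, adjusted p = 1.2e-23), with no overlap. Of the ferredoxins of mitochondrial P450s, Fdx2 gave -0.81 ± 0.11 and Fdx1 gave 0.51 ± 0.08 as deposited. After quantile normalization Fdx2 gave -0.98, and Fdx1 gave 0.22 and was not called (adjusted p = 0.078). Of 6 haem enzymes 2 were higher, 1 was lower and 3 were not called. The lower one, Alas, which makes the first precursor of haem, gave -0.83 ± 0.07 as deposited and -0.023 after quantile normalization.

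Of 7 tested regulators of detoxification genes 3 were lower (background 17.7%), 2 higher (background 39.3%) and 2 not called. The largest fall was that of usp, -0.69 ± 0.09 (limma, adjusted p = 1.1e-07). The higher ones were EcR (0.32 ± 0.10) and tgo (0.21 ± 0.08). Cap-n-collar, the fly Nrf2 homologue (cnc), gave -0.54 ± 0.10 and its partner maf-S gave -0.35 ± 0.06, while the inhibitor Keap1 was not called (0.11 ± 0.10). The nuclear receptor Hr96, which takes part in the response to phenobarbital and DDT, was not called either (-0.02 ± 0.08). After quantile normalization cnc gave -0.17 (adjusted p = 0.0505) and maf-S gave -0.35, while Hr96 was called lower at -0.25 (adjusted p = 0.011). There usp gave -0.83 (adjusted p = 5.8e-09), and neither EcR (adjusted p = 0.99) nor tgo (adjusted p = 0.67) was called. Of the 7 regulators 3 were then lower (background 26.1%) and 0 higher (background 20.2%).

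Rhythm was fitted in each course as a wave of 24 h period, and its amplitude is the log2 distance from the mean to the peak. No P450 gene was rhythmic in dnClk (limma, adjusted p under 0.05, background 0.0355%), and 2 had an unadjusted p under 0.05 there. In WT 2 of 62 were rhythmic, Cyp6a20 and Cyp6a21, beside 0.648% of all tested probe sets. They are next to each other in the 9-gene run. At the 12 times that WT shared with dnClk none passed (background 0.0888%), though 8 had an unadjusted p under 0.05 (background 8.04%). Neither rhythm was called with median-centred arrays (adjusted p = 0.082 for Cyp6a20 and 0.47 for Cyp6a21) or with control scaling (adjusted p = 0.40 and 0.096). Both were called with quantile normalization (adjusted p = 0.016 and 0.047).

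Cyp6a20 in dnClk was flat, with 163 at ZT 44 as its lowest and 275 at ZT 40 as its highest array, an amplitude of 0.04 ± 0.09 (SE) and an unadjusted p = 0.91. In WT its highest arrays were 1870 at ZT 20, 1854 at ZT 42 and 1704 at ZT 22, and its lowest were 518 at ZT 36 and 563 at ZT 24. The WT amplitude was 0.61 ± 0.11 with a peak at ZT 18.6 ± 0.66 (adjusted p = 0.0087), a 2.33-fold range between trough and peak. Fitted on each day alone it had amplitudes of 0.60 and 0.64 and peaks at ZT 19.2 and 18. It thus peaked in the dark on both days. The difference in rhythm between the genotypes had an unadjusted p = 0.002, the smallest of the P450 genes, and did not pass adjustment (adjusted p = 0.98).

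Cyp6a21 had its highest dnClk arrays at ZT 44 with 382, ZT 4 with 332 and ZT 20 with 320, and its lowest at ZT 32 with 130. Its dnClk amplitude was 0.53 ± 0.11 with a peak at ZT 20.3, and its unadjusted p = 0.0018 did not pass adjustment (adjusted p = 0.83). Without the dnClk array at ZT 4 it was called in dnClk, as it was on the second dnClk day alone (adjusted p = 0.042). In WT it ran from 92.3 at ZT 36 to 563 at ZT 46, with an amplitude of 0.64 ± 0.11, a peak at ZT 21.3 ± 0.66 and an adjusted p = 0.0078. The fitted waves of the genotypes were close in size and time, and the test of their difference gave an unadjusted p = 0.55. These neighbours with a night peak in WT thus had fitted amplitudes of 0.04 and 0.53 in dnClk, and the difference between genotypes passed adjustment for neither.

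**Figure D3:**
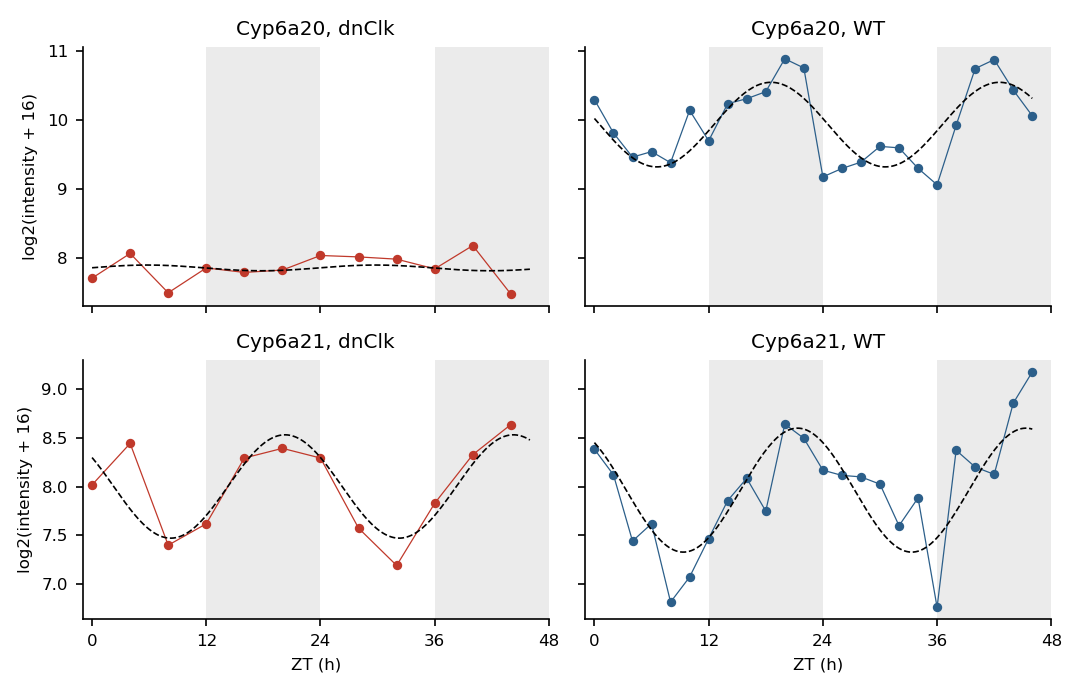
Courses of Cyp6a20 (top) and Cyp6a21 (bottom) as log2(intensity + 16) against zeitgeber time over 2 days, dnClk left and WT right, 1 array per point, with the fitted 24 h wave dashed and the dark phase shaded. Cyp6a20 is flat in dnClk (amplitude 0.04) and peaks at night in WT (0.61), and Cyp6a21 has amplitudes of 0.53 in dnClk and 0.64 in WT.

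Below that threshold WT P450 genes had low p-values more often than other transcripts. An unadjusted p under 0.05 for a WT rhythm was found for 17 of 62 (27.4%), beside 8.6% of all tested probe sets. The share was 27.4% beside 8.77% after quantile normalization, 19.4% beside 6.97% with centred arrays, 14.5% beside 3.7% with control scaling and 21% beside 9.06% with the tissue covariates. Without the WT array at ZT 36 the count was 26 of 62 (41.9%), beside 19.8%. Of the 17 genes 15 peaked in the dark, as did 84% of all probe sets with such a p. In dnClk 2 of 62 had an unadjusted p under 0.05 (3.23%, background 1.72%). The median amplitude was 0.10 in dnClk and 0.20 in WT, where all tested probe sets had 0.12 in dnClk and 0.13 in WT.

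By p-value the next WT courses after Cyp6a21 and Cyp6a20 were those of Cyp313a4 (amplitude 0.31 ± 0.07, peak at ZT 13.7, adjusted p = 0.067), Cyp304a1 (0.46 ± 0.10, peak at ZT 13.9, adjusted p = 0.074) and Cyp12a5 (0.26 ± 0.06, peak at ZT 11, adjusted p = 0.12). None passed as deposited. Cyp304a1 was called with quantile normalization (adjusted p = 0.030), with the tissue covariates (adjusted p = 0.047) and without the WT array at ZT 2 (adjusted p = 0.015). Cyp313a4 was called among the brightest 40% of probe sets (adjusted p = 0.046) and without the WT array at ZT 18 or at ZT 36 (adjusted p = 0.021 and 0.028). In dnClk Cyp313a4 had an amplitude of 0.27 ± 0.23 and Cyp304a1 one of 0.33 ± 0.16. No P450 gene differed in rhythm between genotypes after adjustment (background 0%). Unadjusted, Cyp6a20, Cyp304a1 and Cyp12a5 had a p under 0.05 for that difference, 3 of 62, where 1.59% of all tested probe sets did.

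**Figure D4:**
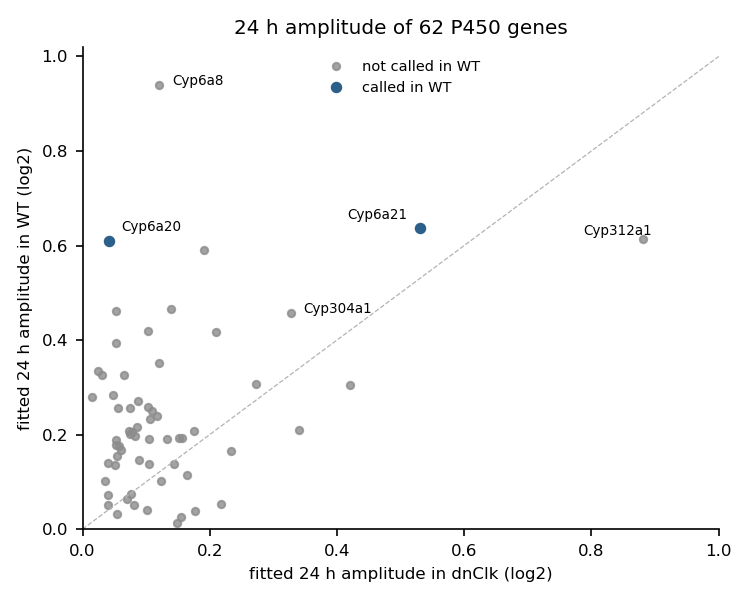
Fitted 24 h amplitude of the 62 tested P450 genes in dnClk (x axis) and WT (y axis), in log2 units, with equality dashed. Blue points are Cyp6a20 and Cyp6a21, the genes called rhythmic in WT. The medians are 0.10 in dnClk and 0.20 in WT, and Cyp6a8 and Cyp312a1 have large fitted amplitudes without a call.

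The WT arrays also differed in their testis signal, and many P450 genes moved with it. The mean log2 of 15 testis markers ran from 6.91 to 10.18 in dnClk and from 4.87 to 10.98 in WT. Of the 15 markers 12 had an unadjusted p under 0.05 for a WT rhythm at the shared times, though none over all 24 WT arrays, and none passed adjustment in either. In WT, with the 24 h wave in the fit, 37 of 62 P450 genes (59.7%) fell as that mean rose, at an adjusted p under 0.05, where 24% of all tested probe sets did. A further 3 genes rose with it (4.84%, background 17.7%). The median slope was -0.11 log2 units per unit of testis signal, beside -0.0036 over all tested probe sets. Quantile normalization gave 48 of 62 falling genes, where 44% of all probe sets fell. Centred arrays gave 51 of 62 (62.3% of all), and control scaling 2 of 62 (0.497% of all). Each of these P450 shares was above that of all tested probe sets. The count thus rested on the scaling, and the P450 median slope in WT lay below that of all tested probe sets under each of the 4. In dnClk the median slope was -0.053, beside -0.058 over all tested probe sets. There 2 of 62 fell, Cyp6a19 and Cyp28d2 (background 11.4%), and none rose (background 12.7%).

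The steepest WT fall was that of Cyp6a8, -0.43 ± 0.10 per unit of testis signal (adjusted p = 0.0013). Its 3 highest WT arrays were 2673 at ZT 38, 1545 at ZT 44 and 1248 at ZT 34, where summed testis markers were 2091, 1422 and 1053, and its 3 lowest were 64.1 at ZT 24, 77.1 at ZT 8 and 80.7 at ZT 4, where the sums were 35388, 24147 and 32275. Cyp6w1 went the same way, with 3580 at ZT 38 and 737 at ZT 24 (slope -0.22 ± 0.05, adjusted p = 0.00059). Cyp309a1 (-0.30 ± 0.07) and Cyp28d1 (-0.24 ± 0.06) had steeper slopes than Cyp6w1, and Cyp4e2 (-0.21 ± 0.04) a slope close to it. The dnClk slopes of Cyp6a8 and Cyp6w1 were -0.11 ± 0.07 and -0.09 ± 0.06, and the arrays of that course spanned less testis signal.

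In the other direction Cyp312a1 had the steepest slope, 0.65 ± 0.06 in WT (adjusted p = 4.6e-10), followed by Cyp4ad1 (0.20 ± 0.04) and Cyp28d2 (0.13 ± 0.04). In dnClk the slope of Cyp312a1 was -0.22 ± 0.23, within its SE of 0, and that of Cyp4ad1 was 0.09 ± 0.04. That of Cyp28d2 was -0.18 ± 0.06 in dnClk and passed with the sign opposite to WT (limma, adjusted p = 0.041). For the rhythmic pair the WT slopes were -0.02 ± 0.04 for Cyp6a20, which did not pass, and -0.13 ± 0.03 for Cyp6a21. With testis and accessory gland means as covariates, the WT amplitudes were 0.61 for Cyp6a20 (adjusted p = 0.0044) and 0.68 for Cyp6a21 (adjusted p = 0.0001).

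**Figure D5:**
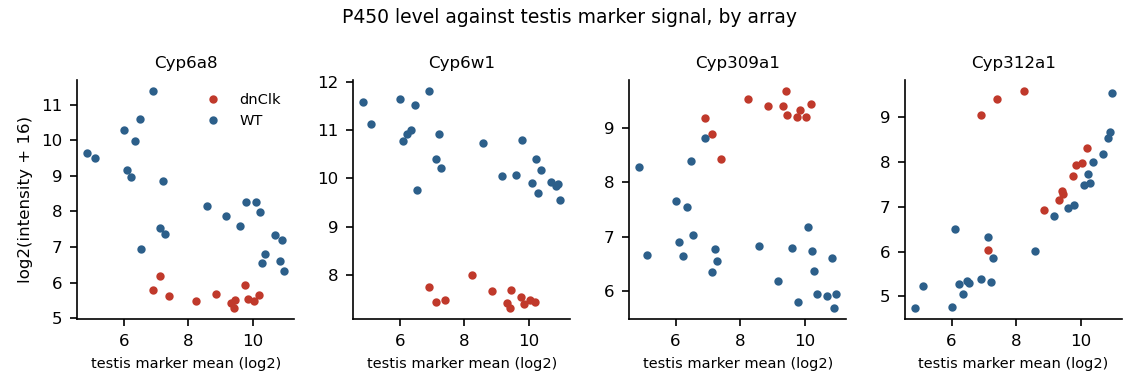
Level of 4 P450 genes as log2(intensity + 16) against the mean log2 of 15 testis markers, 1 point per array, dnClk in red and WT in blue. In WT Cyp6a8, Cyp6w1 and Cyp309a1 fall with the testis signal (slopes -0.43, -0.22 and -0.30) and Cyp312a1 rises (0.65). The 3 dnClk arrays with the highest Cyp312a1 are not those with the highest testis signal.

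With those covariates in the genotype comparison 27 of 62 P450 genes were higher in dnClk and 17 of 62 lower. Over all tested probe sets 28% were higher and 14.3% lower, and both P450 shares lay above these. All 6 genes lower by over 4-fold stayed called, with differences of -2.81 for Cyp6g1, -2.63 for Cyp6w1, -1.93 for Cyp6a8, -1.87 for Cyp6a20, -1.65 for Cyp4ac1 and -1.63 for Cyp4ac2. The 6 genes higher by over 4-fold were also called, from 2.12 for Cyp4s3 to 5.27 for Cyp4p2. Calls of Cyp4e2 (-0.05), Cyp12b2 (-0.06), Cyp12e1 (-0.02), Cyp28d2, Cyp312a1 and Cyp49a1 were among those lost. The median difference over all tested probe sets was 0.066 with the covariates, beside 0.25 without them. Most tested accessory gland and ejaculatory tract markers were themselves higher in dnClk, so that covariate can take up part of a genotype difference. What part of a lost call came from other tissue was therefore not tested.

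Between the days of the WT course 1 of 62 P450 genes differed, Cyp305a1, higher by 0.55 on the second day (adjusted p = 0.045, background 2.35%). With the tissue covariates 16 of 62 did (25.8%), beside 25% of all tested probe sets. That share is the background's. Leaving out single WT arrays moved the count between 0 and 11, and the value of 11 was reached without the array at ZT 36.

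A list of P450 genes linked to insecticides or drugs was read as a group. Of its 10 tested members 6 were lower, Cyp6g1, Cyp6w1, Cyp6a8, Cyp6d5, Cyp12a4 and Cyp9f2, and 2 were higher, Cyp28a5 and Cyp6a9. Of the 62 P450 genes 38.7% were lower and 38.7% higher, and of all tested probe sets 17.7% and 39.3%. After quantile normalization Cyp9f2 gave -0.0040 and was not called. The list was drawn up with earlier results of these data known, so its counts are no test of such genes. Cyp6a2, which metabolises DDT, had a median of 82.2 in dnClk and 106 in WT and was not called (-0.40 ± 0.18, adjusted p = 0.058). It was called lower after quantile normalization (-0.70, adjusted p = 0.0053), and leaving out any of 10 of the 36 arrays also brought the call. The list's median difference was -0.67 as deposited, beside 0.25 over all tested probe sets, and 1.26 under control scaling, beside 2.03.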

How the data were processed

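The authors deposited 1 table of linear-scale intensity values per probe set for all 36 arrays, made with MAS5 of unstated version, per the submitters' processing notes. The deposited scaling was kept. The 183 control probe sets were set aside, and log2(intensity + 16) was analysed in the brightest 60% of the other 18769 probe sets (11261, the dimmest with a mean of 31.3). Symbols came from the platform annotation, updated through a gene table of Drosophila Release 6, which found 13544 of 13647 single-symbol probe sets; it also gave neighbours on the chromosome. No coordinates are given because no build is named for the array. With 12 and 24 arrays a group, the number of arrays limits the precision.

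Level, 24 h rhythm, difference in rhythm, day and slope on the testis marker mean were fitted over all tested probe sets with limma 3.58.1 in R 4.3.3, adjusted by Benjamini-Hochberg over all of them, after a check on simulated data. Column names gave each array's sample, and no 2 arrays were identical. Members, lists and tests were chosen with earlier results of these data known. Named genes were those past a rhythm threshold, the 10 brightest in each genotype, up to 4 highest and 4 lowest called differences in each family, the 5 smallest rhythm p-values, up to 4 genes of each partner list, neighbours and genes whose probe sets disagree. Others, among them Cyp6a8's companions in the slopes, the untested genes and the genes of the covariate fit, were chosen after their values were seen. Alternatives were the pseudocount, the share of probe sets tested, quantile, median and control scaling, tissue covariates, shared times, single days, added 12 h terms and single arrays left out.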

Additional observations from a re-analysis of the deposited data

How the results depend on the processing

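Single arrays left out gave 22 to 25 higher and 22 to 27 lower genes, and groups without overlap of arrays (an alternative chosen after seeing the data) numbered 10 higher and 9 lower. Control scaling gave 55 higher and 3 lower genes and put above 0 the differences of Cyp309a2 (0.085), Cyp6d5 (0.69), Cyp4g1 (0.76), Cyp313a1 (0.91), Cyp4d20 (0.96), Cyp12a4 (1.10), Cyp313b1 (1.13), Cyp12c1 (1.18), Cyp9c1 (1.32), Cyp18a1 (1.41), Cyp318a1 (1.5), Cyp4e2 (1.57), Cyp12b2 (1.63), Cyp9f2 (1.72) and Cyp12e1 (1.72), though taken against its median of 2.03 no named gene reversed. Quantile normalization put Cyp4g1 (0.010) and Cyp4e2 (0.23) above 0, and neither was called there. The cause was not tested. The count of WT rhythms was 0 with median-centred arrays, with control scaling, and on the first or the second day alone, where fewer arrays entered; it was 2 to 4 with single arrays left out, with 4 without the array at ZT 36. At the shared times it was 0 to 5, again highest without ZT 36, and 1 with tissue covariates. In dnClk it was 0 to 1, the 1 without ZT 4, and 2 on the second day alone. Differences in rhythm numbered 0 whichever array was left out. Genes that differed between WT days numbered 0 with all probe sets tested, quantile normalization or centred arrays, 16 with tissue covariates, and 0 to 11 with single arrays left out. Genes falling with the testis mean numbered 2 under control scaling and 32 to 38 with single arrays left out, and those rising 3 to 4. At the shared times with the time point as a block, 24 genes were higher and 19 lower, the same side for both counts as without it; the labels carry no replicate numbers, so shared time was the sole pairing. Pseudocounts of 1 and 64 moved no count by more than 1.5 times. Dim probe sets limit the 18 untested genes.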
